A study of Mus musculus with 6 samples.

Results

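The untreated state of primary peritubular myoid cultures was described from 3 RNA sequencing libraries, out of 6 samples in the series. The members were chosen by their label alone: every gene with a value in the 3 untreated libraries was taken, which gave 19285 of the 22135 rows of the deposited table. The cells were isolated from the testes of C57BL/6J mice, were primary, were grown in DMEM/F12 medium with fetal bovine serum and received no agent. The other 3 samples, which received 50 nM endothelin-1 (ET1) for 5 min, were not used here. The labels give neither the age nor the number of the mice, and they do not say whether the 3 libraries came from separate isolations, so a spread between libraries may be technical.

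Peritubular myoid cells are flat, smooth-muscle-like cells that wrap the seminiferous tubules of the testis. They contract to move sperm and fluid along the tubule, lay down the basement membrane together with the Sertoli cells inside it, and release growth factors such as glial cell line-derived neurotrophic factor that act on spermatogonial stem cells. Leydig cells, which make androgen and insulin-like 3, lie outside the tubule among blood vessels and macrophages. A culture made from testis tissue can therefore hold RNA of several neighbouring types, and each was looked for by its own markers. RNA was measured in bulk as FPKM, the fragments counted on a gene divided by its length and by the depth of the library, a unit that allows the levels of different genes to be set side by side.

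The steps between low FPKM values corresponded to between 18240000 and 18340000 fragments per library, and 16078 to 16226 genes lay above 0 in a library. At this depth 1 fragment on 1000 bases was worth 0.0545 to 0.0548 FPKM, so a gene well below 1 FPKM rests on few fragments, above all a short one. Library 2 stood apart from the other libraries. Of 11539 genes with a mean of at least 1 FPKM, 501 lay over 2-fold apart on log2(FPKM + 1) between libraries 1 and 2, 223 between libraries 2 and 3, and 12 between libraries 1 and 3. The values of all 3 libraries are given throughout for this reason, and the results that rest on library 2 are described as such.

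**Figure D1:**
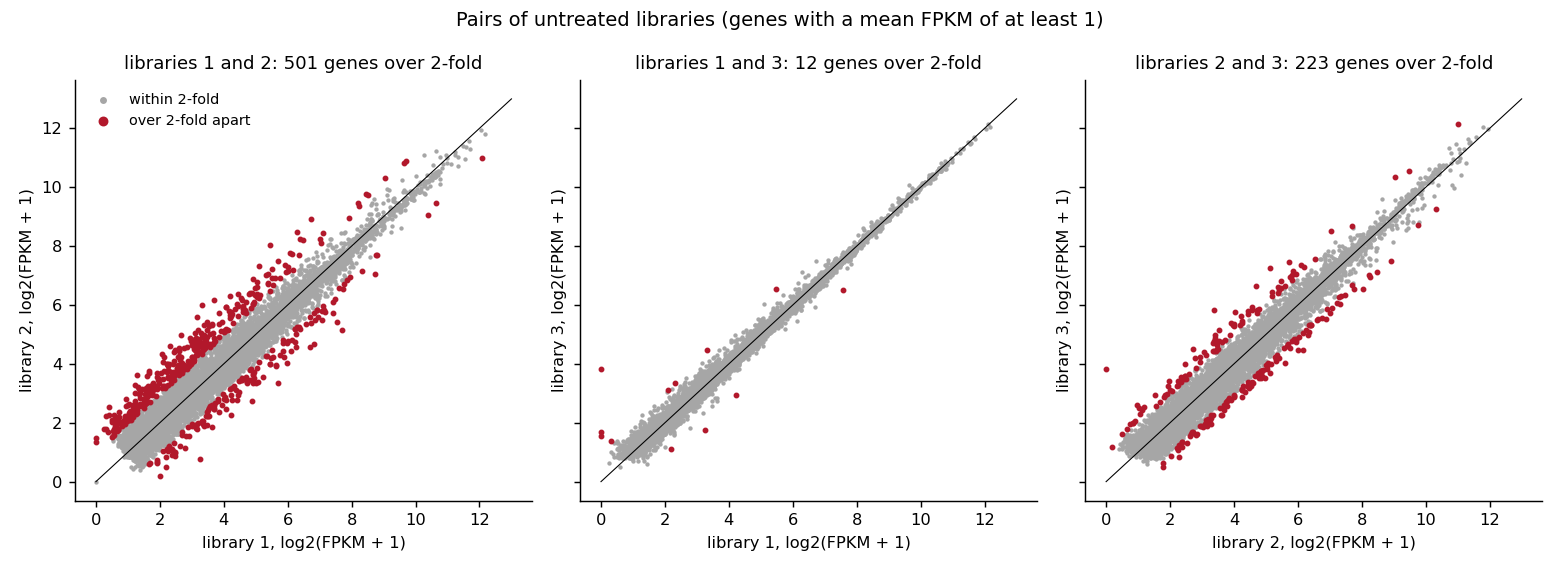
Each point is 1 of 11539 genes with a mean of at least 1 FPKM, both axes give log2(FPKM + 1), and red points lie over 2-fold apart. Libraries 1 and 3 follow the diagonal with 12 red points, whereas library 2 has 501 red points against library 1 and 223 against library 3.

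The culture expressed a broad set of genes. In all 3 libraries 11159 genes (57.9%) were at 1 FPKM or more, 5904 (30.6%) at 10 or more, 815 (4.23%) at 100 or more and 60 at 1000 or more, while 2143 were listed at 0 in each. The median gene had a mean of 3.09 FPKM. The 30 genes of highest mean held 12.7% ± 0.61 of the summed FPKM and the 100 highest held 27.6% ± 1.17 (SD, n = 3). Cytosolic ribosomal protein genes made up 7 of the 30 and 45 of the 100.

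Housekeeping genes, genes of the actin cytoskeleton and a hormone of Leydig cells led the ranking. Ftl1, the ferritin light chain that stores iron, ranked 1 by mean FPKM with 4636, 3564 and 4202 FPKM in libraries 1, 2 and 3. Gapdh, an enzyme of glycolysis, ranked 2 with 4187, 3973 and 4008 FPKM. Insl3, the peptide hormone insulin-like 3, ranked 3 with 4368, 2039.9 and 4532 FPKM. Gapdh was steady across the libraries, with a coefficient of variation (SD over mean) of 2.84%, and Insl3 was the least steady of the 30 at 38.2%. Ftl1 was the highest gene of library 1, Gapdh of library 2 and Insl3 of library 3.

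Actb (3237, 3014 and 3375 FPKM) and Actg1 (2390, 2160 and 2311), the cytoplasmic actins, ranked 4 and 12. Vim, the mesenchymal intermediate filament vimentin, ranked 9 with 2394, 2363 and 2497 FPKM. The same cytoskeletal set included Tmsb4x, which binds actin monomers, Pfn1 and Cfl1, which turn over actin filaments, and Myl6, a myosin light chain, all among the 30. Tmsb4x was highest in library 2, with 1587, 2426 and 1797 FPKM. The 29 listed cytoskeleton genes together held 4.28% ± 0.093 of the summed FPKM (SD, n = 3). Reads of the actins, of Gapdh and of ribosomal protein genes can be shared with near-identical copies, which makes single values of these genes less certain.

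Secreted and stress-related products also stood among the 30. Lgals1, the sugar-binding galectin 1, had 3072, 2622 and 2893 FPKM, and Sparc, a collagen-binding matrix protein, had 2039, 2015 and 1870 FPKM. Timp1, an inhibitor of matrix metalloproteinases, had 2589, 1696 and 2590 FPKM, so that library 2 was the low one. Aldh1a1, which oxidises retinal to retinoic acid, ranked 14 with 1964, 2159 and 2021 FPKM and was steady at a coefficient of variation of 4.89%. It made up most of the summed level of the 12 listed retinoid genes, which came to 2204, 2319 and 2265 FPKM. The remaining members of the 30 were Acta2, described next, Eef1a1, Tpt1, Ppia, S100a11, Ubb, Hspa8, B2m, Ifitm3 and the ribosomal protein genes Rplp1, Rps2, Rpl41, Rpl23a, Rpl18, Rps18 and Rpl35.

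**Figure D2:**
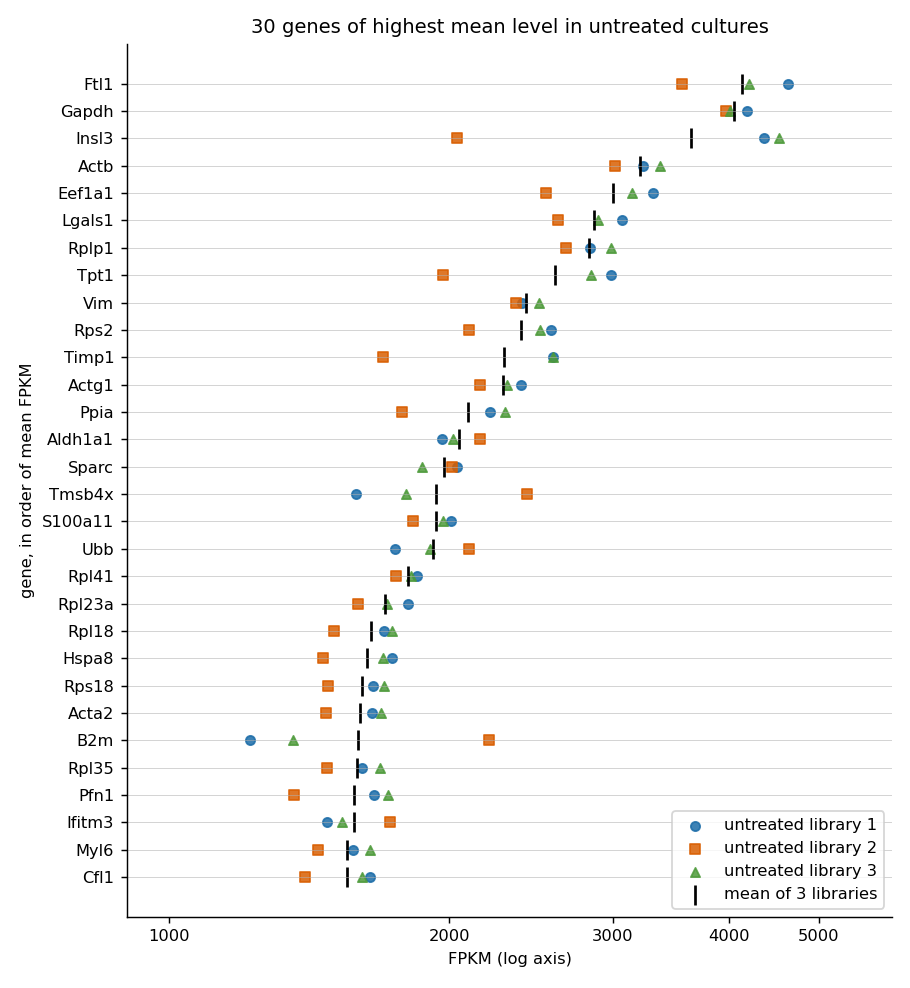
The 30 genes of highest mean FPKM, from Ftl1 at the top to Cfl1 at the bottom, with 1 point per untreated library and a bar for the mean on a log axis of FPKM. Library 2 lies far left of the others for Insl3, Tpt1 and Timp1 and far right for Tmsb4x and B2m, while Gapdh and Vim show the 3 points close together.

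Contractile genes of smooth muscle were high in every library and somewhat lower in library 2. Acta2, smooth muscle actin (chromosome 19, 34240336 to 34255373, mm10), had 1652, 1474 and 1690 FPKM in libraries 1, 2 and 3 and ranked 24 of all genes. Tagln, the actin-bundling transgelin, had 1581, 1343 and 1504 FPKM. Tpm1, a tropomyosin that lies along the actin filament, had 1134, 1159 and 1149 FPKM. The 3 libraries lay within 1.2-fold of each other in each of these genes. Myh11, the smooth muscle myosin heavy chain (chromosome 16, 14194527 to 14291408), was far lower at 51.2, 43.3 and 51.1 FPKM and ranked 1865. Actg2, the enteric smooth muscle actin, had 114.7, 101.9 and 117.4 FPKM, Cnn1, calponin, 70.1, 60.3 and 67.0, and Des, the muscle intermediate filament desmin, 91.7, 64.5 and 81.3. The markers of the labelled cell type were thus present in every library.

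Of the 20 smooth muscle genes listed, 18 were at 1 FPKM or more in all 3 libraries, beside 57.9% of all genes. The median level of the list was 63.8 FPKM beside 3.09 for all genes. The list held 1.24% ± 0.009 of the summed FPKM (SD, n = 3), with sums of 6628, 6339 and 6655 FPKM. The members below 1 FPKM were Myocd, the myocardin coactivator of smooth muscle genes, at 0.42, 0.36 and 0.36 FPKM, and Synpo2 at 0.45, 0.6 and 0.49. Only Pcp4l1, a calmodulin-binding protein, ranged over 2-fold, with 12.02, 4.87 and 10.7 FPKM. Library 2 was lowest in 12 of the 18 with a mean of at least 1 FPKM, beside 43.6% of all genes, by a median of -0.19 on log2(FPKM + 1). It was highest in 4, which were Tpm1, Cald1, Casq2 and Hspb1, and widely so in Hspb1, a small heat shock protein of muscle, with 399, 698 and 462 FPKM.

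Among regulators of peritubular and mesenchymal identity, 15 of 22 were at 1 FPKM or more in every library, a share not far above the 57.9% of all genes. Gata4, a transcription factor of testicular somatic cells, was even at 56.5, 58.6 and 57.2 FPKM. Tcf21, a factor of mesenchymal progenitors, had 42.2, 34.8 and 47.6 FPKM, and Nr2f2, the nuclear receptor COUP-TFII, had 29.97, 21.4 and 29.5. Srf, which binds the promoters of contractile genes, had 38.6, 32.5 and 37.9 FPKM. Wt1, which Sertoli cells also express, differed from this pattern with 22.2, 75.2 and 34.7 FPKM. Gli1, a target of Hedgehog signalling, and Lum and Dpt, matrix genes of fibroblasts, stayed below 0.5 FPKM in every library.

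The summed level of the Leydig list was high, and most of it came from 1 gene. Which cells made this RNA was not tested. Insl3 (chromosome 8, 71689252 to 71690577) was 2.64, 1.38 and 2.68 times as high as Acta2 in libraries 1, 2 and 3 by the ratio of FPKM, and ranked 2, 14 and 1 within them. It made up 80.1%, 75.9% and 82.3% of the summed FPKM of the 17 listed Leydig genes. Insl3 lies inside the span of Jak3, a kinase gene of the same strand that ends at the same base, so reads there may be split between them. Jak3 itself was at 7.8, 4.83 and 6.32 FPKM. In bulk RNA, fewer cells of a type and less RNA per cell cannot be told apart, so a marker level gives no share of cells.

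The first steps of the steroid pathway were expressed, and genes of the later steps were at or near 0. Star, which carries cholesterol into mitochondria, had 77.7, 79.7 and 62.0 FPKM. Cyp11a1, which cuts the cholesterol side chain to make pregnenolone, had 385, 197 and 318 FPKM, and Fdx1, its electron donor, 259, 165 and 253. Hsd3b1, the next enzyme of the pathway, had 58.2, 17.8 and 48.0 FPKM. Library 2 was the low one for these genes other than Star. Cyp17a1, which commits pregnane steroids to androgens, was listed at 0, 0.06 and 0 FPKM, and Hsd17b3, which makes testosterone, at 0.04, 0 and 0.04. Lhcgr, the receptor for luteinizing hormone, was at 0.17, 0.17 and 0.44 FPKM. Nr5a1, the steroidogenic factor 1 that Leydig and Sertoli cells share, was even at 54.5, 58.3 and 56.0 FPKM.

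Of the 17 Leydig genes 11 were at 1 FPKM or more in all libraries, a share not far above the 57.9% of all genes. Cyp2a4 was listed at 0 in each library. The sums were 5457, 2687 and 5508 FPKM, or 0.861% ± 0.293 of the summed FPKM (SD, n = 3). Library 2 was lowest in 8 of the 11 genes with a mean of at least 1 FPKM, where 43.6% of all genes had library 2 lowest. The members with a range over 2-fold were Insl3, Hsd3b1, Ptgds, which makes prostaglandin D2 (170, 67.8 and 162 FPKM), and Prlr, the prolactin receptor (5.47, 2.19 and 5.56). Library 2 was the low library in each of these. Outside the list, library 2 was also low for Cyp11b1, a steroid hydroxylase best known from the adrenal gland, with 28.7, 5.63 and 21.7 FPKM, and for Aqp2, a water channel best known from the kidney, with 111.9, 24.8 and 98.9.

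Sertoli cell markers took the opposite course and were highest in library 2. Clu, the secreted chaperone clusterin (chromosome 14, 65968483 to 65981548), had 839.7, 1879 and 1014 FPKM and ranked 50. Cldn11, the tight junction protein of the blood-testis barrier, had 105, 481 and 180.0 FPKM. Sox9, the transcription factor that sets Sertoli cell fate, had 20.8, 61.0 and 28.1 FPKM, and Dmrt1, which maintains it, had 9.65, 27.7 and 12.6. Fshr, the receptor for follicle-stimulating hormone, was low at 0.66, 4.2 and 1.27 FPKM. In each of these, library 2 was highest, library 1 lowest and library 3 between them. Amh, the anti-Müllerian hormone of immature Sertoli cells, was at 0.39, 0.36 and 0.23 FPKM.

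Of 23 Sertoli genes 19 were at 1 FPKM or more in all libraries, beside 57.9% of all genes. The sums were 1914, 4395 and 2395 FPKM, or 0.555% ± 0.264 of the summed FPKM (SD, n = 3). Library 2 was highest in 17 of 20 genes with a mean of at least 1 FPKM, beside 44.2% of all genes. A range over 2-fold was seen in 10 of the 20, beside 4.39% of all genes. The exceptions were Inhbb, an inhibin and activin subunit (33.3, 26.2 and 33.5 FPKM), Wnt6 (19.9, 12.3 and 19.1) and Aard (22.98, 22.4 and 19.6). Clu kept close to the same part of the list in every library, at 43.9%, 42.7% and 42.4%. Cst12 (88.0, 297 and 128 FPKM) and Gatm, which makes a creatine precursor (83.0, 302 and 124), were the next most abundant members after Cldn11.

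Markers of blood vessels and of macrophages were present at low levels. Egfl7, a protein secreted by endothelial cells (chromosome 2, 26581056 to 26592682), had 17.6, 14.96 and 14.8 FPKM, and Cdh5, the endothelial cadherin, had 20.7, 9.94 and 17.0. Pecam1, an endothelial adhesion protein, had 5.89, 3.32 and 4.75 FPKM, and Kdr, the receptor of vascular endothelial growth factor, 3.75, 1.06 and 2.34. Tek, the angiopoietin receptor, was at 0.44, 0.41 and 0.36. Eng, an accessory receptor of TGF-beta that mesenchymal cells also carry, was the highest of the list at 73.4, 61.3 and 70.4 FPKM. The 20 endothelial genes held 0.0334% ± 0.005 of the summed FPKM (SD, n = 3). Of them 12 were at 1 FPKM or more in all libraries, near the 57.9% of all genes. Library 1 was highest in 12 of the 14 with a mean of at least 1 FPKM, beside 34.7% of all genes.

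Lyz2, the lysozyme of macrophages (chromosome 10, 117277541 to 117282272), had 34.9, 57.6 and 35.6 FPKM. Cd68, a lysosomal glycoprotein of macrophages, had 27.4, 47.1 and 31.5 FPKM, and Mpeg1, a pore-forming protein, 17.4, 49.7 and 23.3. The complement genes C1qa (4.97, 12.9 and 5.9 FPKM), C1qb (2.25, 7.62 and 2.93) and C1qc (2.15, 8.13 and 3.65) followed the same order, with library 2 on top. Library 2 was highest in 13 of 15 macrophage genes with a mean of at least 1 FPKM, beside 44.2% of all genes, and 9 of the 15 ranged over 2-fold, beside 4.39%. Cd14, a receptor for bacterial lipopolysaccharide, went the other way with 29.5, 12.3 and 27.2 FPKM. Csf1r, the receptor that keeps macrophages alive, was level at 2.93, 2.98 and 3.05 FPKM, and Adgre1, Itgam and Ptprc stayed under 1 FPKM. The list held 0.0407% ± 0.014 of the summed FPKM (SD, n = 3).

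**Figure D3:**
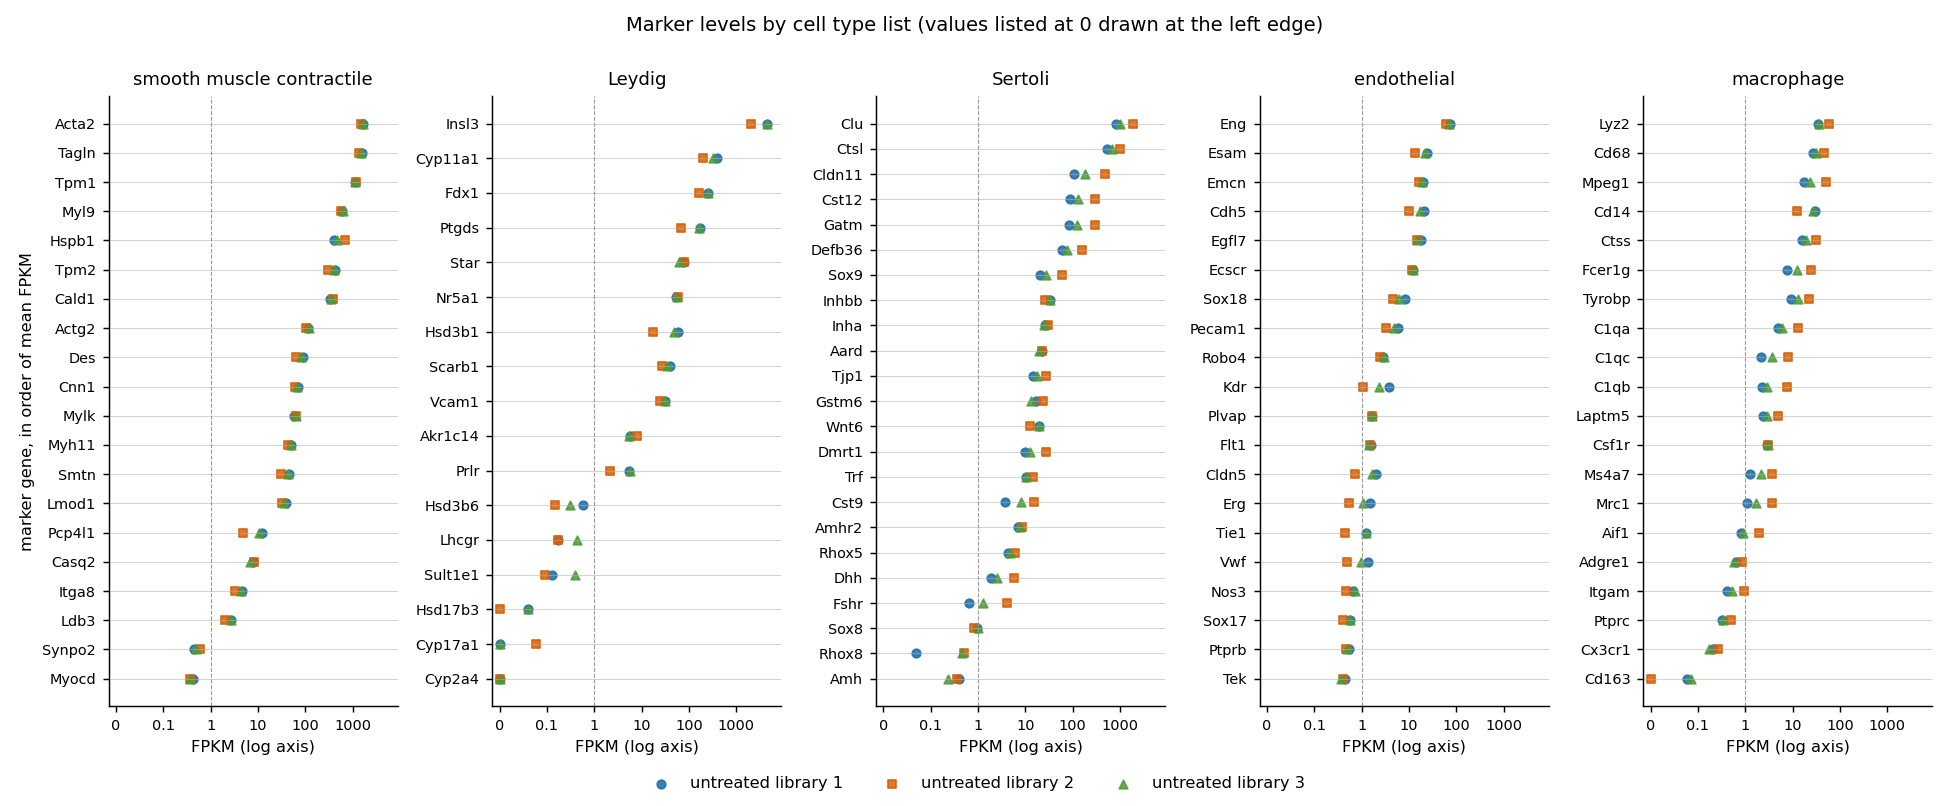
Levels of the smooth muscle, Leydig, Sertoli, endothelial and macrophage markers in FPKM on a log axis, with 1 point per untreated library and a dashed line at 1 FPKM. Library 2 (orange squares) lies to the right in most Sertoli and macrophage rows and to the left in most Leydig and endothelial rows, and the points lie close together in most smooth muscle rows.

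Markers of other cell types were mostly low. Of all genes, 57.9% were at 1 FPKM or more in all 3 libraries. None of 10 lymphocyte and 6 erythroid genes reached 1 FPKM in all libraries, nor did any of 7 mast cell genes other than Hdc, and Ms4a1, Gzma, Nkg7, Mcpt4 and Slc4a1 were listed at 0 in each. Hdc, which makes histamine, had 22.04, 21.95 and 25.2 FPKM. Of 20 germ cell genes 6 were at 1 FPKM or more in every library. Uchl1, a deubiquitinase of spermatogonia and neurons, led them with 90.6, 106 and 80.1 FPKM, whereas Ddx4, a helicase restricted to germ cells, was at 0.54, 0.33 and 0.41. Prm1 (2.02, 4.49 and 3.47 FPKM) and Prm2 (3.13, 5.93 and 3.95), the protamines that pack DNA in spermatids, were low and highest in library 2. Of 14 epithelial and mesothelial genes 5 were at 1 FPKM or more in every library. Msln, a surface protein of mesothelium, had 11.4, 2.64 and 6.24 FPKM, Krt18, a keratin of simple epithelia, 5.39, 4.88 and 5.22, and Cldn4, a tight junction protein, 2.35, 8.76 and 3.45, while the keratins Krt5 and Krt14 were listed at 0. Of 9 adipocyte genes 3 were at 1 FPKM or more, among them Lpl (23.4, 31.5 and 26.3 FPKM) and Fabp4 (18.9, 28.6 and 21.9), and Lep and Cidec were listed at 0. Of the pericyte genes, Mcam had 57.4, 54.0 and 53.1 FPKM and Rgs5 had 2.91, 3.65 and 2.79. Tubb3, a tubulin used as a neuronal marker, had 62.8, 155.4 and 76.1 FPKM while Sox10, which defines Schwann cells, was at 0.02, 0 and 0.02.

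Matrix genes were widely expressed. Of 40 extracellular matrix genes 38 were at 1 FPKM or more in all libraries, beside 57.9% of all genes. The sums were 7800, 6585 and 7333 FPKM. After Sparc came Ccn2 (1163, 995.5 and 1136 FPKM) and Ccn1 (984, 765 and 955), matricellular proteins induced by tension in other cells, and Bgn, the proteoglycan biglycan (729, 572 and 673). The basement membrane collagen chain Col4a1 had 380, 264 and 342 FPKM and its partner Col4a2 had 246, 176 and 218.5. Col4a1 was above the fibrillar collagen chains Col1a1 (210.4, 185 and 216 FPKM) and Col1a2 (196, 207 and 207) in every library. Col3a1, the chain of type III collagen, had the widest range of the list with 211, 91.3 and 189.6 FPKM. Library 2 was lowest in 25 of the 38, beside 43.6% of all genes.

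Among enzymes and inhibitors that act on the matrix, Serpinh1, a collagen chaperone, had 609, 482.5 and 544 FPKM. Timp3, an inhibitor bound to the matrix, was highest in library 2 with 219, 353 and 246 FPKM. Mmp2, a gelatinase, was lowest in library 2 with 62.7, 15.4 and 53.8 FPKM. The members of widest range were Mmp2 and Mmp12, an elastase of macrophages, which had 2.78, 10.9 and 4.69 FPKM.

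Receptors for contractile agents were mostly low. Of 38 listed receptors 18 were at 1 FPKM or more in all libraries, beside 57.9% of all genes. The median of the list was 1.04 FPKM, beside 3.09 for all genes. F2r, the thrombin receptor, was highest with 97.0, 85.5 and 91.9 FPKM. P2ry2, a receptor for ATP and UTP, had 30.3, 31.6 and 31.5 FPKM, Adra1d, an adrenergic receptor, 22.7, 15.6 and 21.8, and Avpr1a, a vasopressin receptor, 17.8, 11.3 and 16.6. Ednra, the endothelin receptor A, had 4.56, 2.85 and 4.48 FPKM, and Ednrb, the endothelin receptor B, 1.16, 1.34 and 1.41. Edn1, the gene of endothelin-1 (chromosome 13, 42301476 to 42307990), was expressed above both receptors at 45.7, 102 and 54.3 FPKM and was highest in library 2. None of the 19 receptors with a mean of at least 1 FPKM ranged over 2-fold, beside 4.39% of all genes.

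Calcium handling was served by calmodulin and the sarcoplasmic pump. Calm2 had 244, 252 and 242 FPKM, and Atp2a2, the pump that refills the sarcoplasmic reticulum, had 92.1, 85.8 and 90.7. Stim1, the sensor of store calcium, was highest in library 2 with 23.5, 61.1 and 31.1 FPKM. It was the 1 calcium gene of 21 to range over 2-fold, which is near the 4.39% of all genes. Its channel partner Orai1 had 11.1, 16.7 and 14.1 FPKM.

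Growth factors of the tubule niche were expressed across a wide span. Spp1, the secreted phosphoprotein osteopontin, led with 1581, 713 and 1494 FPKM. Csf1, which supports macrophages and spermatogonia, was level at 413, 400.0 and 433 FPKM. Gdnf, the glial cell line-derived neurotrophic factor that maintains spermatogonial stem cells (chromosome 15, 7810048 to 7837580), was at 7.68, 28.5 and 12.5 FPKM, with the widest range of the list. Kitl, the ligand of the Kit receptor, had 41.8, 61.4 and 46.2 FPKM, Cxcl12, a chemokine that attracts stem cells, 75, 52.4 and 75.3, and Tgfb3, a transforming growth factor, 121, 131 and 119.8. Spp1 and Gdnf went opposite ways in library 2, and over the 33 members with a mean of at least 1 FPKM library 2 was highest in 12 and lowest in 14, near the 44.2% and 43.6% of all genes. Sertoli markers, which summed to 1914, 4395 and 2395 FPKM, took the same order as Gdnf, and their part in its level was not tested. Among binding proteins of insulin-like growth factors, Igfbp7 stood first with 1224, 893 and 1256 FPKM. Sfrp2, a secreted Wnt inhibitor, had 427, 130.5 and 364 FPKM.

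Chemokines included Ccl2 (191, 137 and 222 FPKM) and Ccl7 (98.9, 68.8 and 105.8), which attract monocytes. Cxcl5, which attracts neutrophils, had 50.9, 9.29 and 56.5 FPKM and was the gene farthest below the other libraries in library 2, 5.05-fold below the nearer of them on FPKM + 1. Ccl5 (30.5, 79.8 and 39.2 FPKM) and Cxcl10 (6.25, 22.7 and 9.45), which interferon induces, were highest in library 2. Prostaglandin genes included Ptgis, which makes prostacyclin, with 108, 64.4 and 93.2 FPKM and Ptgs2, the inducible cyclooxygenase, with 69.2, 27.1 and 43.3.

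Interferon response genes were expressed in all 3 libraries and were highest in library 2. Isg15, a ubiquitin-like protein that interferon induces, had 348, 875 and 448 FPKM. Bst2, tetherin, which holds virus particles at the cell surface, had 761, 1221 and 832 FPKM. Rsad2, viperin, an antiviral enzyme, had 8.97, 62.8 and 21.2 FPKM, the widest range of the list. Ifit3, an interferon-induced protein with tetratricopeptide repeats, had 43.1, 264 and 91.9 FPKM. Library 2 was highest in 30 of 30 members, beside 44.2% of all genes, and library 1 was lowest in 29, beside 36.4%. A range over 2-fold was seen in 21 of the 30, beside 4.39% of all genes. The summed level was 2041, 4427 and 2480 FPKM.

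Transcription factors of the pathway had ranges from narrow to wide. Irf9, a subunit of the factor that carries the interferon signal, had the narrowest range of the list with 37.3, 42.0 and 36.6 FPKM. Stat2, its partner, had 31.4, 51.4 and 34.0 FPKM. Irf7, which amplifies the response, had 241, 501 and 278 FPKM. Genes of class I antigen presentation lay the same way: B2m, the shared light chain, had 1220.0, 2206 and 1358 FPKM, H2-D1, a heavy chain, 803, 1818 and 1076, and Tap1, a peptide transporter, 23.2, 58.3 and 29.1. Library 2 was highest in 11 of 14 such genes, beside 44.2% of all genes. Calr (778, 682 and 784 FPKM), Tap2 (74.9, 70.3 and 76.1) and H2-T23 (53.6, 35.6 and 41.1) were the exceptions. H2 genes are near copies of each other, as are Ifit3 and Ifit3b, and their single values are uncertain. The macrophage markers, with sums of 162, 292 and 187 FPKM, were also highest in library 2, and their part in these levels was not tested.

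The promoters of the 3 most abundant interferon genes that hold a motif of GAAA, any 2 bases and GAAA again, the core of the interferon-stimulated response element, are shown as a view of what these genes have in common. Each runs from 250 bases before to 50 after the gene start in RefSeq, build GRCm38.p6, 5′ to 3′ on the strand of the gene, with matches to the motif on either strand in capitals. Bst2 is chr8:71537423-71537722 on the minus strand with 2 overlapping matches that begin 130 and 124 bases before the start. Isg15 is chr4:156200769-156201068 on the minus strand with 3 overlapping matches, the first 78 and the last 66 bases before it. Ifit3 is chr19:34583279-34583578 on the plus strand with 2 matches on the opposite strand, at 156 and 122 bases.
Bst2: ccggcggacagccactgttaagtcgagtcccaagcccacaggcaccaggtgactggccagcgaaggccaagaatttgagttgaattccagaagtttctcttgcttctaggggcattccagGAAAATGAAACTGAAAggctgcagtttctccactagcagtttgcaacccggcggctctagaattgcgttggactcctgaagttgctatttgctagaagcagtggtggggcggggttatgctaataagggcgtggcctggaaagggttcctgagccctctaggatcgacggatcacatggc
Isg15: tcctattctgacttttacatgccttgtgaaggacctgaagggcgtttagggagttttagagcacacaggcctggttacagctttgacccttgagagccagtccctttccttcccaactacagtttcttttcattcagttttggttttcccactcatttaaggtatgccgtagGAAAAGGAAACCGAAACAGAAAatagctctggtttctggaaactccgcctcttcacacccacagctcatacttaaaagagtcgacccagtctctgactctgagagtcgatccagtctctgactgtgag
Ifit3: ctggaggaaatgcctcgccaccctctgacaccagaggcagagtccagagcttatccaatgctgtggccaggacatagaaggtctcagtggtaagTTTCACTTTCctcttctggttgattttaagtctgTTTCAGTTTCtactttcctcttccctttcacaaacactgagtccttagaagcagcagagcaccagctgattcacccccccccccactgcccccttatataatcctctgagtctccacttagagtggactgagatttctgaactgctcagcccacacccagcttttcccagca
The motif was found, on either strand, in 12 of 21 interferon response genes with a promoter entry (57.1%) and in 3 of 12 genes of class I presentation. Some genes have several promoters, which gives them more chances of a match. Counted by promoter, the motif was found in 13 of 26 for the interferon response (50%) and in 3 of 13 for class I presentation (23.1%). By this count it was found in 3.44% of all 32851 promoters of that length. Besides these 3, Ifit1, Oas1a, Gbp3, Stat2, Ddx58, Rsad2, Gbp2, Ifih1 and Trim30a held it. A match describes these letters only and is not evidence of binding. Each of the 12 genes was highest in library 2, but so were all 30 members of the list, with or without the motif.

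Cholesterol synthesis was lowest in library 2. Sc5d, a desaturase near the end of the pathway, had 75.1, 22.9 and 55.7 FPKM, and Insig1, which holds back the sterol-sensing factor, had 20.3, 5.84 and 17.5. Fdps, which makes farnesyl diphosphate, had 134, 55.0 and 128 FPKM. Hmgcs1, the HMG-CoA synthase, was nearly level at 52.8, 47.9 and 56.7. Library 2 was lowest in 23 of 23 members with a mean of at least 1 FPKM, beside 43.6% of all genes. Of the 23, 11 (47.8%) ranged over 2-fold, beside 4.39% of all genes. The median of library 2 minus the mean of the others was -0.94 on log2(FPKM + 1). The Leydig markers, with their sums of 5457, 2687 and 5508 FPKM, were also lowest in library 2, and their part in these levels was not tested. The letters TCAC, any 2 bases and CCAC, a form of the sterol regulatory element, were searched for on either strand. They were found in 0 of 19 promoters of 16 cholesterol synthesis genes and in 1.59% of all promoters.

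Proliferation genes were expressed in every library. Pcna, the sliding clamp of DNA replication, had 166, 139 and 166.5 FPKM, and Cdk1, the mitotic kinase, 39.0, 31.4 and 40.0. Rrm2, a subunit of ribonucleotide reductase, had 141, 52.98 and 123 FPKM and was the 1 of 30 that ranged over 2-fold, near the 4.39% of all genes. Library 2 was lowest in 30 of 30, beside 43.6% of all genes, by a median of -0.38 on the same scale. Library 1 was highest in 14 of them, beside 34.7% of all genes, and library 3 in 16, beside 20%. Cdkn1a, the cell cycle inhibitor p21, was at 279, 313 and 249.96 FPKM. The 45 cytosolic ribosomal protein genes listed are part of the family, without Rpl41 and Rpl23a among others. They are not the same set as the 45 among the 100 highest genes. The listed genes held 9.04% ± 0.444 of the summed FPKM (SD, n = 3). Library 2 was lowest in 43 of 45, beside 43.6% of all genes, by a median of -0.17.

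Metal and oxidative stress genes varied one by one. Mt1, a metallothionein, had 1349, 529 and 1302 FPKM and Gpx3, a secreted glutathione peroxidase, had 208, 34.2 and 150.3. Gstm1, a glutathione transferase, went the other way with 528, 1268 and 606 FPKM. The shares of 4 other lists were steady. Heat shock and unfolded protein genes held 0.964% ± 0.005, lysosomal genes 0.803% ± 0.014, nuclear-encoded respiratory chain genes 0.926% ± 0.013 and immediate early genes 0.244% ± 0.005 of the summed FPKM (SD, n = 3). A steady share does not mean that each member was steady. Of 20 heat shock and unfolded protein genes, 3 (15%) ranged over 2-fold, beside 4.39% of all genes. No lysosomal, respiratory chain or immediate early gene with a mean of at least 1 FPKM did. Ier3 led the immediate early genes with 304, 368 and 315 FPKM. Fos, a subunit of AP-1, had 24.6, 32.7 and 25.4, and Egr1, an early growth response factor, had 47.0, 30.1 and 39.2.

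**Figure D4:**
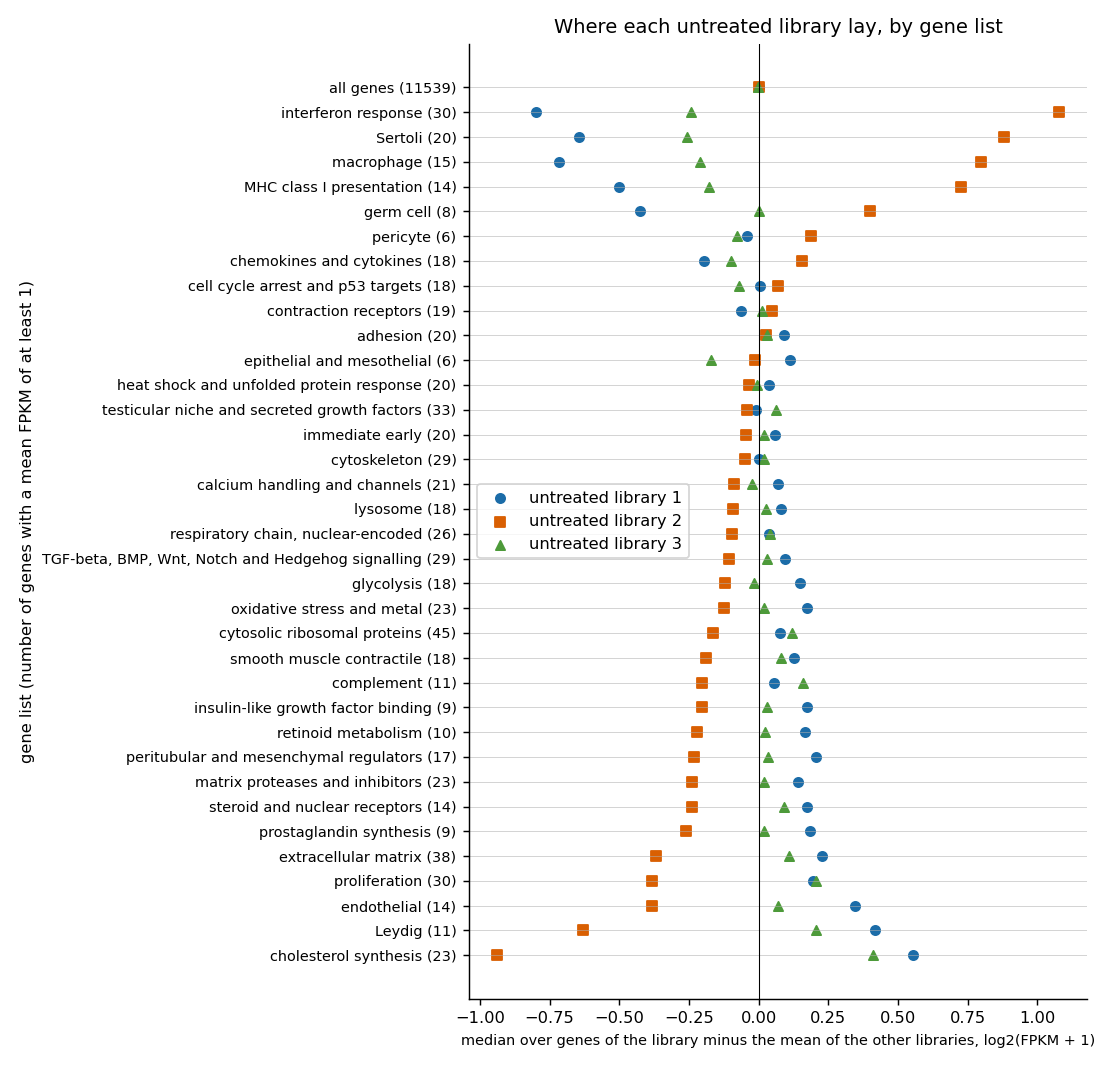
For each gene list, the median over its genes of each untreated library minus the mean of the other libraries, on log2(FPKM + 1), with lists ordered by library 2 and the number of genes in brackets. All genes lie at 0 in every library. Library 2 reaches 1.08 for the interferon response and -0.94 for cholesterol synthesis, and library 3 lies between libraries 1 and 2 in most lists with a wide spread.

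Spread between libraries fell with the level of a gene up to a point. The median coefficient of variation was 13.1% at a mean of 1 to 10 FPKM, 7.80% at 10 to 100, 6.91% at 100 to 1000 and 8.23% above. Over all 11539 genes, 506 (4.39%) had a range over 2-fold. Libraries 1 and 3 differed by 2.58 times the variance that sampling of fragments alone gives, against 17.4 for libraries 1 and 2 and 12.4 for libraries 2 and 3. Libraries 1 and 3 were kept as separate samples because they differed by more than sampling noise, which does not show that they came from separate preparations. On log2(FPKM + 1) the Pearson correlation across genes was 0.972 for libraries 1 and 2, 0.996 for 1 and 3 and 0.983 for 2 and 3. These correlations describe genes of 3 libraries, and genes are not independent replicates.

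Library 3 lay between the other libraries in most genes. Over 11414 genes without a tie it was in the middle in 60.7%, and over 6607 with a range over 0.2 on log2(FPKM + 1) in 72.4%. A wide range mostly meant a wide gap between libraries 1 and 2, which by itself favours library 3 as the middle one. Of 505 genes with a range over 2-fold and no tie, library 3 was in the middle in 483 (95.6%), library 1 in 20 and library 2 in 2. Its position also fell within a narrow band over these genes. With library 1 set at 0 and library 2 at 1 on the FPKM scale, library 3 had a median position of 0.216 over the 501 genes over 2-fold apart between libraries 1 and 2, with an interquartile range of 0.173 to 0.267. The median was 0.216 for the 343 genes higher in library 2 and 0.214 for the 158 genes higher in library 1. For the lists a lower threshold was used, a difference over 0.5 between libraries 1 and 2 on log2(FPKM + 1). The median position was then 0.20 for 29 interferon genes, 0.198 for 11 class I genes, 0.18 for 14 Sertoli genes and 0.197 for 14 macrophage genes. It was 0.216 for 18 extracellular matrix genes and 0.154 for 17 cholesterol synthesis genes. Fewer members passed for Leydig genes (0.081, 7 genes), endothelial genes (0.44, 7 genes) and proliferation genes (-0.056, 7 genes). Whether the libraries share cells, animals or a preparation is not given in the labels and was not tested.

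**Figure D5:**
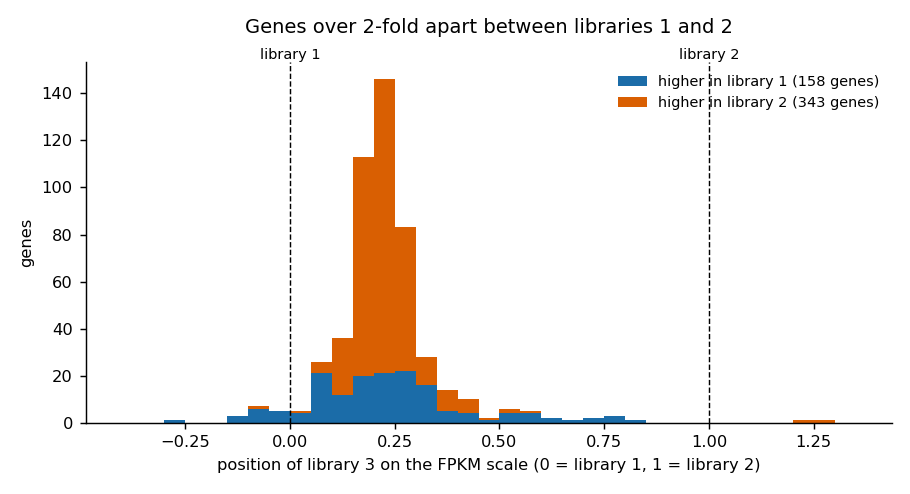
Position of library 3 on the FPKM scale for the 501 genes over 2-fold apart between libraries 1 and 2, where 0 is the level in library 1 and 1 that in library 2, as stacked counts of genes. Genes higher in library 2 (343) and in library 1 (158) both gather near 0.216.

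The genes farthest from the nearer of the other libraries, among those with a mean of at least 5 FPKM, mark each library. In library 2 those farthest above were Ifit3b, Tgtp1, Rsad2, Ifit3 and Cmpk2 of the interferon response, Qpct, Cldn11 and Cstdc1, with gaps of 2.61-fold to 3.22-fold on FPKM + 1. Those farthest below were Cxcl5, Gpx3, Aqp2, Cyp11b1, Mmp2, Rarres1, Hsd11b1 and Ly6d, with gaps of 3.0-fold to 5.05-fold. Hsd11b1, which converts glucocorticoids between active and inactive forms, had 36.7, 10.6 and 34.8 FPKM. Library 1 was farthest above in Rnaset2b, Rpl34, Prl2c2, Crct1, Msln, Pdpn, Prl2c3 and Gsta2 (1.62-fold to 2.42-fold) and farthest below in Rsad2, Ifit3, Tmem255a, Olfr1383, Cldn23, Gbp4, Cst9 and Vnn1 (1.90-fold to 2.23-fold). Pdpn, podoplanin, a mucin-like surface protein, had 101.9, 22.7 and 60.7 FPKM. Rnaset2b, Rpl34, Prl2c2, Prl2c3 and Tgtp1 have near-identical copies, and their values are uncertain.

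Library 3 had no gene as far out as these. Those farthest above were C1qtnf2, Hmga1b, Mia, Cenps, Rpl22l1, Apoc1, Znhit2 and Ramp2, with gaps of 1.2-fold to 1.32-fold. Those farthest below were Mthfs, Star, Gpank1, Kcnab3, Lilr4b, Gstm6, Eif4ebp2 and Rnd1, with gaps of 1.21-fold to 1.44-fold. Mthfs, an enzyme of folate metabolism, had 6.62, 6.93 and 4.29 FPKM. Apoc1, an apolipoprotein, had 70.9, 56.2 and 87.1 FPKM.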

How the data were processed

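Total RNA of the untreated cells was sequenced, per the labels. The authors deposited 1 table with an FPKM value per gene and library, rounded to 2 decimals per the file headers, and the length of the longest transcript. RSEM 1.2.12, HISAT2 2.0.4, Bowtie2 2.2.5 and build mm10 are named, without roles, per the submitters' processing notes. Scaling and filters are not given in the sources.

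The 19285 genes with values (19161 of them protein-coding in RefSeq GRCm38.p6) were described with Python 3.11.15, pandas 2.3.3 and NumPy 2.4.6. In 27 rows a date stood in place of the symbol, which was looked up by gene identifier. The table held no value for the mitochondrial chromosome, so the 10 mitochondrially encoded genes listed were not described. In 44 genes the table and RefSeq place the gene on different chromosomes, and no coordinates are given for these.

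With 1 group there was no test and no p-value. Levels are FPKM. Differences between libraries are on log2(FPKM + 1), over genes with a mean of at least 1 FPKM, and this scale understates the differences of low genes. Depth was recovered from the steps of low FPKM values (0.05 to 0.6 FPKM in genes of 300 to 1200 bases), where 82.3% to 87.6% of values lay within 0.15 of a whole fragment. RSEM values need not be whole, so no count model was used. The steps were tested on simulated data.

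The genes and the 41 gene lists (849 of 863 entries in the table, 3 genes in more than 1 list) were chosen with earlier results of these data known. Named were the markers, the 30 highest genes, for each library the 8 genes farthest above and below the nearer other library at a mean of at least 5 FPKM (predicted genes left out), members of cell type lists, the highest and the most variable members of other lists, and Edn1, Ednra and Ednrb. Other genes, among them Jak3 and members given as exceptions or for their role, were chosen after their values were seen. Alternatives covered the pseudocount, the filter, the scaling, the averaging and each library left out. The results of 3 listed genes by themselves are not reported here.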

Additional observations from a re-analysis of the deposited data

How the results depend on the processing

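No paired analysis was possible because 1 group was described and no result comes from a test. Of 144 alternatives computed, 134 kept the result, 10 moved it and none turned a direction. Kept means within 1.5 times for a count or within the spread between libraries for a value. For a list median that spread includes the gap of library 2 itself, so it is a wide measure. The Leydig median of library 2 counted as kept although it went from -0.63 to -0.33 with no filter. So did that of the ribosomal protein genes, from -0.17 to -0.07 under quantile normalization. The count of genes with a range over 2-fold was 506; it was 797 at a pseudocount of 0.1 and 223 at a pseudocount of 5. With a library left out it lay between 10 (without library 2) and 505 (without library 3), and was 222 without library 1. The smooth muscle share of 1.24% was 0.938% without Acta2 and 1.07% with the 30 highest genes left out. The Leydig share of 0.861% was 0.171% without Insl3 and 0.196% with the 30 highest genes left out. The endothelial share of 0.0334% was 0.0205% without Eng and 0.0383% with the 30 highest genes left out. The Sertoli share of 0.555% was 0.317% without Clu. It counted as kept because its SD between libraries, 0.264, is wide. The median position of library 3 lay between 0.211 and 0.216 under alternatives chosen after the data were seen, as were the list medians without library 1 or library 3. List medians of library 2 stayed between 0.91 and 1.24 for the interferon response and between -0.98 and -0.68 for cholesterol synthesis, and have no value without library 2. Depth limits genes near or below 1 FPKM.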

Other observations

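Library 2 differences went only weakly with transcript length. Across 11539 genes the Pearson correlation between the difference of library 2 from the other libraries and log2 transcript length was 0.13, a description of genes of 3 libraries. The median length was 3089 bases for 767 genes over 0.5 higher in library 2 than in either other library on log2(FPKM + 1), 2339 bases for 564 genes lower in it by the same margin and 2838 bases for all genes.

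Surface and adhesion genes that separate mesenchymal cells were mixed in level. Ly6a, the stem cell antigen Sca-1, had 390.0, 486 and 418 FPKM, and Nt5e, the ecto-nucleotidase CD73, had 56.0, 94.9 and 59.2. Cdh2, N-cadherin, which Sertoli cells carry, was highest in library 2 with 41.2, 81.9 and 49.2 FPKM. Thy1, a surface protein of fibroblasts, was low at 2.02, 2.34 and 2.4 FPKM.

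Among the complement genes, C1s1 (80.2, 142.5 and 92.8 FPKM) was highest in library 2 and C3 (80.2, 37.3 and 70.1 FPKM) was lowest in it. Among targets of the unfolded protein and amino acid responses, Trib3 had 8.08, 20.9 and 10.4 FPKM, Chac1 10.9, 24.6 and 13.5, and Asns, asparagine synthetase, 69.5, 128.7 and 84.3, with library 2 highest in each. The chaperones Hspa1a (8.95, 4.28 and 8.64 FPKM) and Hspa1b (22.4, 9.84 and 20.7), near-identical copies, were lowest in library 2.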
